A study of Mus musculus with 16 samples.

Results

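Mitochondrial ribosomal protein genes are the nuclear genes whose mouse symbols begin with Mrpl (large subunit) or Mrps (small subunit) and a number. The name pattern, without pseudogenes, chose 77 of the 24421 genes in the tables keyed by gene symbol and 78 of the 51912 entries in the table keyed by Ensembl ID. The 77 are in both kinds of table, and the remaining one, Mrpl58, appears in the symbol tables under its older name Ict1. No measured value entered the choice.

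The mitochondrial ribosome translates the few mRNAs of mitochondrial DNA, all of which encode subunits of the respiratory chain and ATP synthase. Its rRNAs come from the mitochondrial genome, whereas every one of its proteins is encoded in the nucleus, made in the cytosol and imported. Some of these proteins descend from bacterial ribosomal proteins and others exist only in mitochondria, and in tumour cells driven by Myc the genes are known to belong to a growth programme that also covers cytosolic ribosomes.

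Polyadenylated RNA was sequenced from 16 libraries of C57BL/6 mouse organoids, which are cell cultures grown in 3 dimensions. Tumour organoids of genotype TMP, that is Trp53-/-, Myc and sgCdkn2a, make up the groups Ctr (n = 3) and Lung-Ctr (n = 2). Those of genotype TMPL carry the same 3 alterations together with LMP1, an oncoprotein that Epstein-Barr virus places in the cell membrane, and make up the groups LMP1 (n = 2) and Lung-LMP1 (n = 3). The tumours grew in recipient mice after transplantation into the nasopharynx, per the labels' protocols. Normal_nasopha (n = 3) and Normal_lung (n = 3) are untreated organoids grown from those normal tissues. In the labels all TMP libraries are primary and all TMPL libraries are metastases, while the design text names both sites for both genotypes, so genotype and labelled site cannot be told apart and groups are named here by their titles. Neither the promoters of Myc and LMP1, nor the ages of the animals, nor the number of tumours behind a group are given in the sources used here.

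The 3 normal columns deposited beside Ctr are headed as normal lung, but their Sftpc, a surfactant gene of lung epithelium, was 133.7, 31.4 and 30.1 CPM (read counts divided by the library's total and scaled), against 37317 to 45810 CPM in Normal_lung and 26.4 to 121.9 CPM in Normal_nasopha. They are called the normal comparator. Across replicates of the same number, member counts kept a steady ratio to Normal_nasopha. The highest over the lowest ratio had a median of 1.05, against 1.56 for Normal_lung. Krt5 was at 8075, 2090 and 5913 CPM in the comparator and 6146, 1578 and 4452 CPM in Normal_nasopha. The comparator thus appears to be the Normal_nasopha libraries counted again and not a further group, though the labels do not say so. The tables of tumours and of normal tissues were counted on different gene models, so fold changes and tests stay within one kind of table. Levels are set side by side across tables only to describe the comparator. Total counts ran from 12535166 to 21737184 per library, so a floor of 3 counts was 0.138 to 0.2393 CPM, far under the lowest member level in any tumour library (4.98 CPM, Mrps11). Trp53 was at 58.1 to 108.7 CPM in the tumour libraries and Cdkn2a at 121.6 to 381.1 CPM, and since it is not given which part of either gene is lost, these levels do not check the genotypes. Whether replicates came from separate animals or cultures is not said in the labels. The p-values therefore measure only the spread between these samples, which may be technical.

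Short sequence motifs were looked for in the promoters of the family. RefSeq promoters (GRCm38.p6, 250 bases before to 50 after the start) were found for 69 of the 78 members, 75 promoters in all. On either strand, CCGGAAG, the core bound by ETS factors such as GABP, was present in 34.67% of them, against 11.56% of the promoters of coding genes and 8.86% of all 32851 promoters. AAGATGGC, the core bound by YY1, was present in 16.00%, against 3.05% and 2.75%. It contains the letters ATG, so a match after the start may include a start codon. GCATGCGC, a core of the site for NRF1, a regulator of nuclear genes for mitochondria, was present in 10.67%, against 3.52% and 2.71%. CACGTG, the E-box bound by Myc with Max, was present in 9.33%, against 7.84% and 7.15%. None of the 4 motifs was present in 33 of the 75 member promoters (44.00%), against 77.24% of coding and 80.93% of all promoters. Base composition differed as well: the median number of CpG dinucleotides, which the ETS and NRF1 cores and the E-box contain, was 21 in member promoters, 13 in those of coding genes and 7 over all, and the median GC content was 58.67%, 56.33% and 52.67%. Its part in the motif shares was not tested. The CCGGAAG and AAGATGGC letters overlapped in 0 of the 75 promoters, and the NRF1 core can match both strands of one palindromic stretch. Shown next are 30-base windows of members that rose in TMPL organoids, each read 5′ to 3′ on the strand of its gene, with the ETS core, the YY1 core or the E-box in capitals.

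Mrps21, chr3:95871478-95871507, minus strand: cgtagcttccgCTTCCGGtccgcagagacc
Mrpl21, chr19:3283038-3283067, plus strand: cgctgcttccgCTTCCGGttgggactgtgg
Mrpl51, chr6:125192099-125192128, plus strand: caggggctaaaCCGGAAGtatttgactgga
Mrpl57, chr14:57826232-57826261, plus strand: ccccagagagaCCGGAAGcagcgcgccgcc
Mrps18a, chr17:46110967-46110996, plus strand: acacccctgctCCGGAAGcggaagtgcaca
Mrps11, chr7:78783013-78783042, plus strand: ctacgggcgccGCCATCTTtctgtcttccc
Mrps7, chr11:115604147-115604176, plus strand: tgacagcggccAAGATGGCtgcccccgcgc
Mrpl42, chr10:95501904-95501933, minus strand: cagattgaagcAAGATGGCgagcgcgcggt
Mrpl2, chr17:46646078-46646107, plus strand: actgccgcccgtCACGTGacccgagcaacc

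Mrpl32, which encodes a large subunit protein, had 3 stretches that match the NRF1 core on 1 or both strands, and the 100 bases before its start are shown with them in capitals.

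Mrpl32, chr13:14613038-14613137, minus strand: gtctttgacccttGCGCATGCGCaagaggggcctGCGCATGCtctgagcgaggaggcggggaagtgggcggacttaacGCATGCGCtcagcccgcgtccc

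The ETS core began 18 bases after the start in Mrps21, 7 after it in Mrpl21 and 4 after it in Mrpl57, and 90 and 26 bases before it in Mrpl51 and Mrps18a. The YY1 core of Mrps11 began 107 bases before the start. Of the 18 members that rose in TMPL organoids, 14 had a promoter entry, and 11 of these held at least 1 of the 4 motifs (78.6%), against 28 of the 54 other members with an entry (51.9%). The called members without an entry were Mrpl54, Mrpl38, Mrpl15 and Mrps34. These shares are descriptions, and a match is not a bound site.

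Members also lie close to other genes. On GENCODE vM21 (GRCm38), 33 of 78 members (42.31%) start within 1000 bases of an oppositely directed coding gene in head-to-head orientation, against 10.86% of 21951 coding genes. Mrps11 and Mrpl46 form such a pair between themselves, with gene models that overlap by 412 bases, and Mrps12 starts 172 bases from Sars2, the mitochondrial seryl-tRNA synthetase. The members are spread over 17 chromosomes, with 11 on chromosome 11 and 8 on chromosome 17.

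Across the 10 tumour libraries all 77 members were detected, with medians from 11.1 to 100.8 CPM. Per kilobase of transcript, the median level was 20.9 CPM per kilobase over the members and ran from 3.83 to 72.0. The 4 highest on this scale were Mrpl12 (72.0), a large subunit protein also known to bind the mitochondrial RNA polymerase, Mrps18b (63.8), Mrpl18 (62.5) and Mrpl52 (57.7). The 4 lowest were Mrps25 (3.83), Mrpl23 (5.47), Mrpl48 (5.54) and Mrpl47 (7.17). Lengths are those of the longest annotated transcript, so a gene that uses a shorter one is placed too low. Large subunit proteins with bacterial relatives had the highest class median (26.4 CPM per kilobase) and mitochondria-specific small subunit proteins the lowest (16.4).

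Between the highest and lowest tumour library, 44 of 77 members ranged by under 2-fold, and the median range of log2 (CPM + 0.5) was 0.90. The 6 with the widest range were Mrps21, Mrps11, Mrpl54, Mrpl20, Mrps27 and Mrpl11, with Mrps21 reaching 2.44. In Mrpl20, a counterpart of bacterial L20, the genotypes overlapped, with 16.7, 36.9 and 40.0 CPM in Ctr, 25.8 and 14.9 in Lung-Ctr, 52.0 and 55.0 in LMP1, and 48.3, 25.9 and 35.02 in Lung-LMP1.

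The members together took 0.30%, 0.32% and 0.35% of the counts in Ctr and 0.28% and 0.28% in Lung-Ctr. They took 0.40% and 0.40% in LMP1, and 0.40%, 0.30% and 0.36% in Lung-LMP1. The mean share was thus 0.31% ± 0.03 (SD, n = 5) in TMP and 0.37% ± 0.04 (SD, n = 5) in TMPL, a ratio of 1.22, and the 2 genotypes overlapped because Lung-LMP1 replicate 2 (0.302%) was below Ctr replicates 2 and 3. The normal comparator, at 0.33%, 0.36% and 0.29%, lay within the tumour range. No p is given for this sum.

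**Figure D1:**
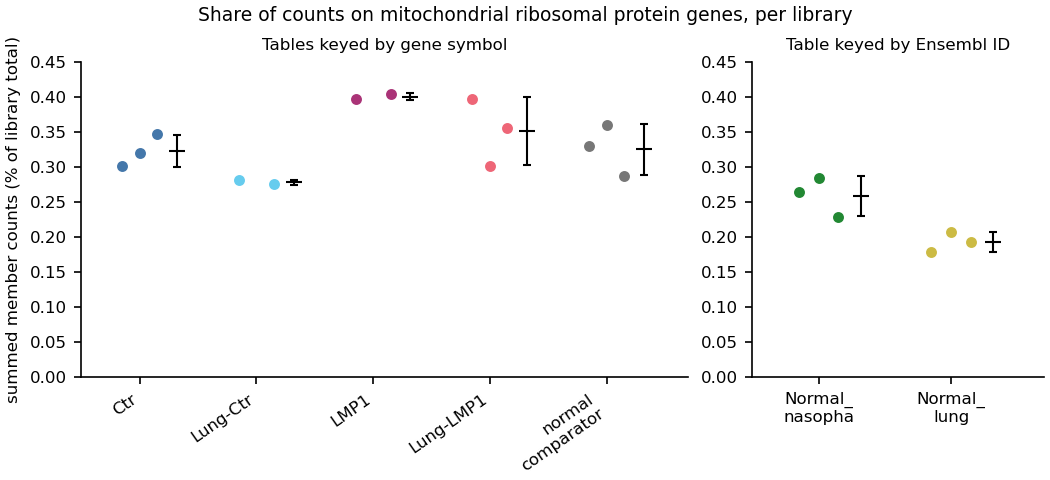
Summed counts of the mitochondrial ribosomal protein genes as a percent of each library's total (points, 1 per library), with mean ± SD beside each group. LMP1 libraries sit at 0.397% and 0.404% and Lung-Ctr libraries at 0.281% and 0.276%, and the right panel, counted on other gene models, shows Normal_nasopha above Normal_lung.

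TMPL against TMP asks which genes differ with LMP1 once the Lung prefix is a term in the fit. Mitochondrial ribosomal protein genes that changed were all higher in TMPL: 18 of 77 rose and 0 fell (23.4%). Of the 13460 genes tested, 12.4% were called, 7.23% higher and 5.14% lower (edgeR quasi-likelihood test, adjusted p under 0.05). DESeq2 called 29 members higher and 1 lower, with 23.2% of all genes called. The median log2 fold change of the 77 was 0.29, beside -0.05 for all genes tested, and 68 of 77 were positive. Unadjusted p was under 0.05 for 40 of them (51.9%), against 30.3% of all genes. In 13 members every TMPL library was above every TMP library, and in 0 was every TMPL library below. No share of all genes is given here for this separation, so it is not read as a trait of the members. Leaving out LMP1 replicate 1 or 2 left 10 and 7 members higher in TMPL than TMP, with 0 lower. No share of all genes is given here for these fits, so the drop cannot be told from one over all genes.

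By class, 5 of 30 large subunit proteins with bacterial relatives rose (median log2 fold change 0.26), and 7 of 20 that are specific to mitochondria (0.33). In the small subunit, 4 of 16 with bacterial relatives rose (0.27) and 2 of 11 that are specific to mitochondria (0.38). All 31 mitochondria-specific members, of both subunits, had a positive log2 fold change, beside 25 of 30 and 12 of 16 members with bacterial relatives. The difference between the classes was not tested.

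**Figure D2:**
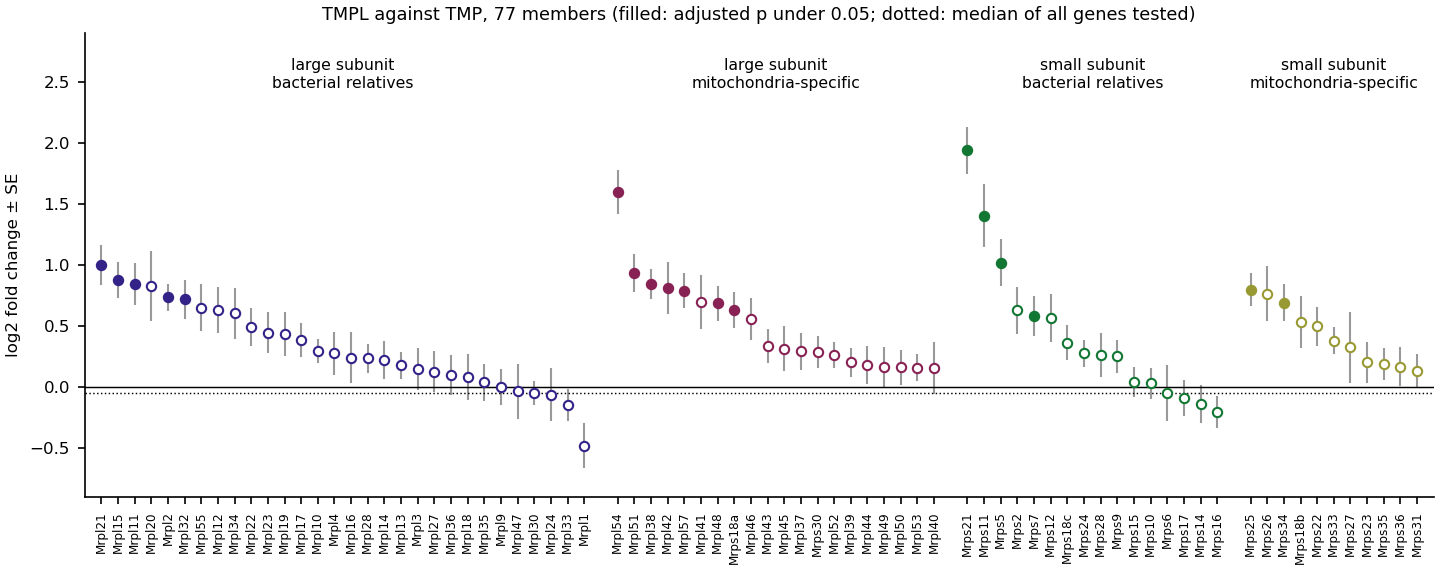
Log2 fold change of TMPL against TMP with its standard error for the 77 members, in 4 structural classes and sorted within each. Filled points passed an adjusted p under 0.05, the dotted line is the median of all genes tested (-0.05), and Mrps21, Mrpl54 and Mrps11 stand highest.

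Mrps21 (ENSMUSG00000054312, chr3:95862634-95871519), the counterpart of bacterial S21 in the small subunit, was at 14.0, 7.85 and 8.84 CPM in Ctr and 7.38 and 9.03 CPM in Lung-Ctr. It was at 41.3 and 42.2 CPM in LMP1 and at 33.2, 27.4 and 26.1 CPM in Lung-LMP1. All 5 TMPL libraries were above all 5 TMP libraries, and within TMPL the LMP1 libraries were above the Lung-LMP1 libraries. The log2 fold change was 1.94 ± 0.19 (SE), a 3.83-fold difference, with an adjusted p of 0.00326 (edgeR).

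Mrpl54 (ENSMUSG00000034932, chr10:81264713-81266934), a mitochondria-specific large subunit protein, was at 7.27, 5.62 and 6.89 CPM in Ctr and 6.27 and 7.37 CPM in Lung-Ctr. In LMP1 it was at 23.1 and 23.0 CPM, and in Lung-LMP1 at 20.4, 16.0 and 16.0 CPM. The genotypes did not overlap, and the log2 fold change was 1.60 ± 0.18 (SE; adjusted p = 0.00392, edgeR). Mrpl54 starts 26 bases from the head-to-head gene Apba3.

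Mrps11 (ENSMUSG00000030611, chr7:78783119-78792989), the counterpart of bacterial S11, was at 6.24, 6.12 and 10.6 CPM in Ctr and 7.24 and 4.98 CPM in Lung-Ctr. LMP1 libraries were at 23.2 and 22.3 CPM and Lung-LMP1 libraries at 18.9, 11.6 and 11.6 CPM, again with no overlap between genotypes, though Ctr replicate 3 came close to the lower Lung-LMP1 libraries. Its log2 fold change was 1.40 ± 0.26 (SE; adjusted p = 0.0113, edgeR), and without LMP1 replicate 2 the adjusted p was 0.055. Mrpl46, which shares the start region with Mrps11, was at 0.55 ± 0.17 (SE) on that scale and did not pass.

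Mrpl51 (ENSMUSG00000030335, chr6:125191801-125196269) and Mrpl38 (ENSMUSG00000020775, chr11:116131817-116138868) are mitochondria-specific proteins of the large subunit. Mrpl51 was at 22.5, 20.7 and 27.3 CPM in Ctr, 17.7 and 20.5 in Lung-Ctr, 47.0 and 50.1 in LMP1, and 40.8, 29.0 and 29.0 in Lung-LMP1. Mrpl38 was at 62.3, 62.2 and 50.2 CPM in Ctr, 51.9 and 51.3 in Lung-Ctr, 123 and 126 in LMP1, and 75.5, 81.2 and 72.0 in Lung-LMP1. Both separated the genotypes without overlap, and both were highest in LMP1. The log2 fold changes were 0.93 ± 0.16 and 0.85 ± 0.12 (SE), with adjusted p-values of 0.00863 and 0.00572 (edgeR), and that of Mrpl51 was 0.052 without LMP1 replicate 2.

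Mrps25, a mitochondria-specific small subunit protein, rose by 0.80 ± 0.13 on the log2 scale (SE; adjusted p = 0.00864, edgeR), from 15.9 to 22.9 CPM over the TMP libraries to 23.6 to 36.7 CPM over the TMPL libraries. The remaining 12 called members had log2 fold changes from 0.58 (Mrps7) to 1.02 (Mrps5), and in 7 of them the ranges of the genotypes overlapped. Of the 13 members whose genotypes did not overlap, Mrps18c and Mrpl52 did not pass the test.

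**Figure D3:**
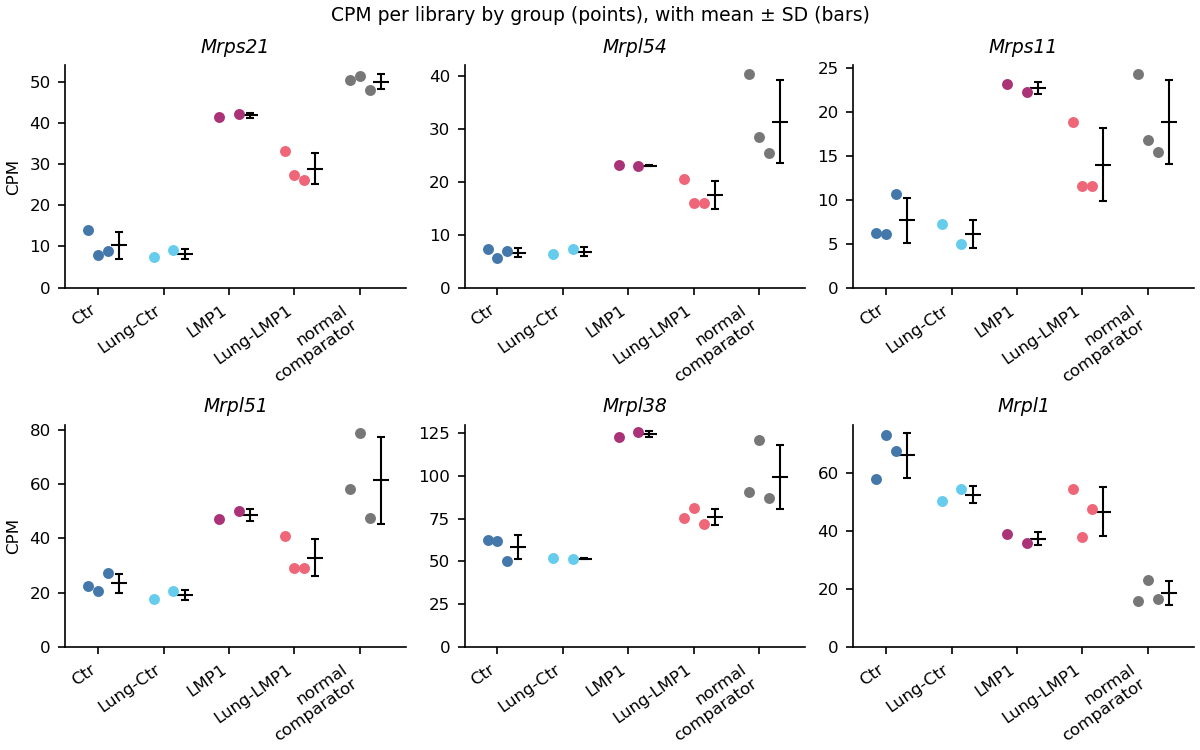
CPM of 6 members in each library (points) by group, with mean ± SD, on axes that start at 0. Mrps21, Mrpl54, Mrps11, Mrpl51 and Mrpl38 are higher in LMP1 and Lung-LMP1 than in Ctr and Lung-Ctr, and Mrpl1 is lowest in the normal comparator.

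The S18 paralogs did not all pass. Mrps18a, which sits in the large subunit, rose by 0.63 ± 0.15 on the log2 scale (SE; adjusted p = 0.0247, edgeR). Its CPM was 19.2, 23.8 and 23.6 in Ctr, 19.8 and 22.6 in Lung-Ctr, 36.8 and 38.0 in LMP1, and 35.2, 24.2 and 29.3 in Lung-LMP1, with no overlap between genotypes. This call was lost without LMP1 replicate 1 or 2 or Lung-LMP1 replicate 1 (edgeR adjusted p of 0.087, 0.109 and 0.051), and after the correction for length and GC content described with the comparator (0.107). The small subunit paralogs Mrps18b and Mrps18c had log2 fold changes of 0.53 ± 0.21 and 0.36 ± 0.14 (SE), with adjusted p-values of 0.121 and 0.119 (edgeR). Whether the paralogs differ from each other was not tested.

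Other members followed for their known roles did not pass. Mrpl12 had a log2 fold change of 0.63 ± 0.19 (SE; adjusted p = 0.0598, edgeR), with 67.1, 84.8 and 104 CPM in Ctr, 85.4 and 63.7 in Lung-Ctr, 132 and 140 in LMP1, and 141, 77.9 and 110 in Lung-LMP1. Mrps12, the counterpart of bacterial S12 at the decoding site, was at 0.56 ± 0.20, Mrps30 at 0.29 ± 0.13 and Mrps36, a protein also placed in the 2-oxoglutarate dehydrogenase complex, at 0.16 ± 0.16 on the same scale. Ict1, the gene now named Mrpl58, which encodes a peptidyl-tRNA hydrolase of the large subunit, had a log2 fold change of 0.34 ± 0.15 (SE; adjusted p = 0.166, edgeR).

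The LMP1 libraries also differed from all others in cell type markers. The summed level of 10 fibroblast and mesenchyme markers was 1644 to 2052 CPM in LMP1 and 3.01 to 571.1 CPM in Ctr (highest in replicate 2). In Lung-Ctr it was 11.98 to 24.0 CPM and in Lung-LMP1 8.86 to 17.99 CPM. Much of the high sums was Vim, at 1350 and 1017 CPM in LMP1 replicates 1 and 2 and 372.7 CPM in Ctr replicate 2. The 10 epithelial markers summed to 977.6 and 1493 CPM in LMP1, against 3274 to 7390 CPM over the other tumour libraries. The summed share of the members was 0.397% and 0.404% in LMP1 and 0.398%, 0.302% and 0.355% in Lung-LMP1. Thy1 was at 0 in the LMP1 libraries, and Col1a2, Lum and Thy1 were at 0 in both groups with the Lung prefix. In bulk RNA, fewer cells of a type and less RNA per cell cannot be told apart. The part of these markers in the member values was not tested.

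Myc moved with genotype as well. It was at 626.8 to 819.3 CPM in Ctr, 456.6 and 568.2 in Lung-Ctr, 2005 and 1841 in LMP1, and 1211, 583.4 and 1068 in Lung-LMP1. Its log2 fold change for TMPL against TMP was 1.19 ± 0.21 (SE; adjusted p = 0.00987, edgeR). Lung-LMP1 replicate 2 was the lowest TMPL library both for Myc and for the summed share of the members (0.302%). Within Ctr the orders were opposite. Myc was at 819.3, 667.3 and 626.8 CPM in replicates 1 to 3, and the share was 0.302%, 0.320% and 0.348%. Lung-LMP1 replicates 1, 2 and 3, with Myc at 1211, 583.4 and 1068 CPM, had shares of 0.398%, 0.302% and 0.355%. Shares in LMP1 were 0.397% and 0.404%. The part of Myc in the member levels was not tested.

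Without the Lung prefix, LMP1 against Ctr gave 15 members higher and 1 lower of 77, or 20.8%, against 16.4% of all genes tested (7.36% higher and 9.06% lower). The median member was at 0.27 on the log2 scale, beside -0.01 for all genes. The largest increases with no overlap between groups were in Mrps21 (2.01 ± 0.27, SE), Mrpl54 (1.78 ± 0.24), Mrps11 (1.54 ± 0.36), Mrps5 (1.11 ± 0.28), Mrpl38 (1.07 ± 0.14) and Mrpl51 (1.02 ± 0.22). Mrps12 rose here by 0.93 ± 0.23 (SE; adjusted p = 0.0302, edgeR), from 16.5, 17.6 and 25.3 CPM to 39.2 and 37.6 CPM.

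Mrpl1 (ENSMUSG00000029486, chr5:96209493-96266727), the counterpart of the bacterial L1 stalk protein, was the 1 member that fell. It was at 57.6, 72.8 and 67.3 CPM in Ctr and 38.7 and 35.7 CPM in LMP1, with no overlap, a log2 fold change of -0.85 ± 0.20 (SE; adjusted p = 0.0245, edgeR). After the length and GC correction its log2 fold change was -0.41, which did not pass, and Mrps11 and Mrpl38 did not pass either (edgeR adjusted p of 0.0593 and 0.0501). Without either LMP1 replicate, when 1 library stood for that group and was assumed to vary like the others, 0 members passed. For those fits no share of all genes is given here. The authors' deposited table for this comparison called 20 members higher and 1 lower, with 27.7% of all genes called.

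Between the groups with the Lung prefix, 0 members and 0 of 13460 genes passed in edgeR (0%), although the members leaned one way. The median log2 fold change of Lung-LMP1 against Lung-Ctr was 0.36, beside -0.04 over all genes, and 70 of 77 members were positive. At an unadjusted p under 0.05 there were 25 members (32.5%) and 2296 genes (17.1%). DESeq2 called 15 members higher and 0 lower in this comparison, with 6.46% of all genes called, and the authors' deposited table called 7 higher and 0 lower, with 3.42% called.

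The 3 members of smallest p between these groups were Mrps21, Mrpl54 and Mrpl32. The log2 fold change was 1.87 ± 0.29 for Mrps21 and 1.41 ± 0.25 for Mrpl54 (SE; both with adjusted p = 0.109, edgeR). Mrpl32 was at 15.9 and 15.9 CPM in Lung-Ctr and 30.5, 28.9 and 28.8 CPM in Lung-LMP1, which do not overlap (log2 fold change 0.94 ± 0.21 SE, adjusted p = 0.116, edgeR). Mrps18b was at 43.4 and 45.4 CPM against 96.6, 61.6 and 79.8 CPM, also without overlap (0.89 ± 0.25 SE, adjusted p = 0.152, edgeR).

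Whether the genotype difference itself differed between libraries with and without the Lung prefix was tested as an interaction. It called 0 of 77 members and 0.892% of all genes in edgeR, with 2 members (2.60%) and 15.6% of all genes at an unadjusted p under 0.05. The smallest p-values belonged to Mrpl1 (0.73 ± 0.28 SE on the log2 scale, adjusted p = 0.252, edgeR), Mrpl3 (0.63 ± 0.27) and Mrpl38 (-0.46 ± 0.20).

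Within TMP, Lung-Ctr against Ctr called 0 members and 0% of genes, with a median of -0.16, 14 of 77 members positive, and 0 members but 5.33% of all genes at an unadjusted p under 0.05 in edgeR. DESeq2 called 0 members and 0.297% of genes. The 3 of smallest p were Mrps18b (-0.52 ± 0.25 SE), Mrps22 (-0.39 ± 0.20) and Mrps25 (-0.35 ± 0.20).

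Lung-LMP1 against LMP1 called 1 member, where 10.1% of all genes passed (6.17% higher and 3.94% lower). Between these groups 8 of 10 epithelial markers rose and 3 of 7 mesenchymal markers tested fell, and their part in the member values was not tested. Mrpl38 fell by 0.57 on the log2 scale (SE 0.14; adjusted p = 0.0376, edgeR), from 123 and 126 to 75.5, 81.2 and 72.0 CPM. Mrps15 (-0.46 ± 0.16 SE) and Mrpl34 (-0.69 ± 0.25) had the next smallest p-values and did not pass. Without any 1 Lung-LMP1 library no member passed, and no share of all genes is given here for these fits. Leaving out an LMP1 library leaves 1 library in that group, and calls from such fits are not read here.

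The tumour groups differed from the normal comparator in both directions. Of 77 members, 13 rose and 19 fell, which is 41.6%, a share near the 44.7% of the 14096 genes tested (18.9% higher and 25.8% lower). The median log2 fold change was -0.00 over members and -0.07 over all genes, and the quartiles over members were -0.44 and 0.38. These fold changes varied with transcript length and GC content across members (Spearman rho 0.41 and -0.43 over 77 members, which share their libraries). After correcting each library for its trend with length and GC content, 19 members were higher and 12 lower, beside 39.2% of all genes called.

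Among the members that rose, Mrpl1 was at 15.7, 23.1 and 16.4 CPM in the comparator and at 35.7 CPM or more in every tumour library, a log2 fold change of 1.40 ± 0.18 (SE; adjusted p = 0.000268, edgeR). Mrps35, a mitochondria-specific small subunit protein, was at 26.7, 20.8 and 23.5 CPM in the comparator and from 43.4 to 61.9 CPM in the tumour libraries (1.13 ± 0.15). Mrps30, a large subunit protein in spite of its symbol, rose by 1.01 ± 0.15, Mrpl13 by 0.88 ± 0.16, Mrpl3 by 0.82 ± 0.18 and Mrpl18 by 0.75 ± 0.23 on the log2 scale (SE). In these 6 members no tumour library overlapped the comparator. Mrpl13 was at 0.31 after the length and GC correction and did not pass, and Mrpl18 did not pass without comparator replicate 2 or 3 (edgeR adjusted p of 0.083 and 0.103).

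Among those that fell, Mrpl14, the counterpart of bacterial L14, had the smallest p. It was at 55.6, 70.2 and 62.5 CPM in the comparator and from 15.3 to 29.6 CPM in the tumour libraries, with a log2 fold change of -1.58 ± 0.14 (SE; adjusted p = 4.26e-05, edgeR). Mrps21 (-1.52 ± 0.17 SE) and Mrpl54 (-1.46 ± 0.18) followed, then Mrps34 (-1.15 ± 0.17), Mrpl23 (-0.88 ± 0.18) and Mrpl27 (-0.82 ± 0.17), the last at -0.20 and not passing after the length and GC correction. Mrps21 in the comparator was 50.4, 51.4 and 48.0 CPM, above all tumour libraries. Of the members named here, Mrpl14, Mrps34, Mrpl23 and Mrpl27 had comparator counts over 1.2 times those of Normal_nasopha, as did Mrps30 and Mrpl18 above. That limit is described below.

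Of the members followed for their roles, Mrps12 (-0.72 ± 0.17 SE on the log2 scale), Mrps18a (-0.71 ± 0.22) and Mrps18c (-0.67 ± 0.18) fell against the comparator. All 3 calls were lost after the length and GC correction, under which Mrps12 was at 0.05, and those of Mrps18a and Mrps18c also without comparator replicate 2. Mrpl12 (0.26 ± 0.24), Mrps18b (-0.06 ± 0.26) and Mrps36 (-0.00 ± 0.17) did not pass.

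Each tumour group was also set against the same 3 comparator libraries, which these comparisons share. Ctr gave 9 members higher and 22 lower (40.3%), against 35.1% of all genes, 16.1% higher and 19% lower. Lung-Ctr gave 5 higher and 20 lower (32.5%), against 27.4%, 13.2% higher and 14.2% lower. LMP1 gave 9 higher and 3 lower (15.6%), against 28.2%, 13.7% higher and 14.5% lower. Lung-LMP1 gave 13 higher and 7 lower (26%), against 32%, 14.6% higher and 17.4% lower. The median member was at -0.07, -0.28, 0.24 and 0.10 on the log2 scale in Ctr, Lung-Ctr, LMP1 and Lung-LMP1, beside -0.07, -0.04, -0.02 and -0.08 over all genes.

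After the correction for length and GC content the splits of higher and lower members were 11 and 16 in Ctr, 5 and 14 in Lung-Ctr, 18 and 0 in LMP1, and 12 and 3 in Lung-LMP1. Under it 26.1%, 17.9%, 26.1% and 26.6% of all genes were called in these groups. When only Lung-Ctr and the comparator were fitted, 0 members were higher and 1 lower, with 1.24% of all genes called. The same fit restricted to 2 groups gave 4 higher and 12 lower in Ctr, 2 and 1 in LMP1, and 8 and 4 in Lung-LMP1, with 22.4%, 16.7% and 22.7% of all genes called.

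Mrps21 against the comparator was at -2.37 on the log2 scale in Ctr, -2.63 in Lung-Ctr and -0.75 in Lung-LMP1, each past the threshold, and at -0.31 in LMP1, which did not pass. Mrpl54 was at -2.33 in Ctr, -2.23 in Lung-Ctr and -0.80 in Lung-LMP1, which passed, and at -0.50 in LMP1, which did not. After the length and GC correction the Lung-LMP1 values were -0.22 for Mrps21 and -0.01 for Mrpl54, and neither passed. Mrpl1, Mrps35, Mrps30 and Mrpl13 rose in each of the 4 tumour groups, and Mrpl14, Mrps34 and Mrpl27 fell. After that correction only Mrpl1 of these 7 passed in all 4 groups, and Mrpl13 passed in none, at -0.02 in Lung-Ctr. Leukocyte and lung epithelial markers were also higher in the comparator (75.1 to 299.5 and 153.1 to 298.7 CPM summed over 10 genes each) than in the tumour libraries (8.14 to 41.7 and 3.45 to 56.3 CPM), and their part in the member values was not tested.

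**Figure D4:**
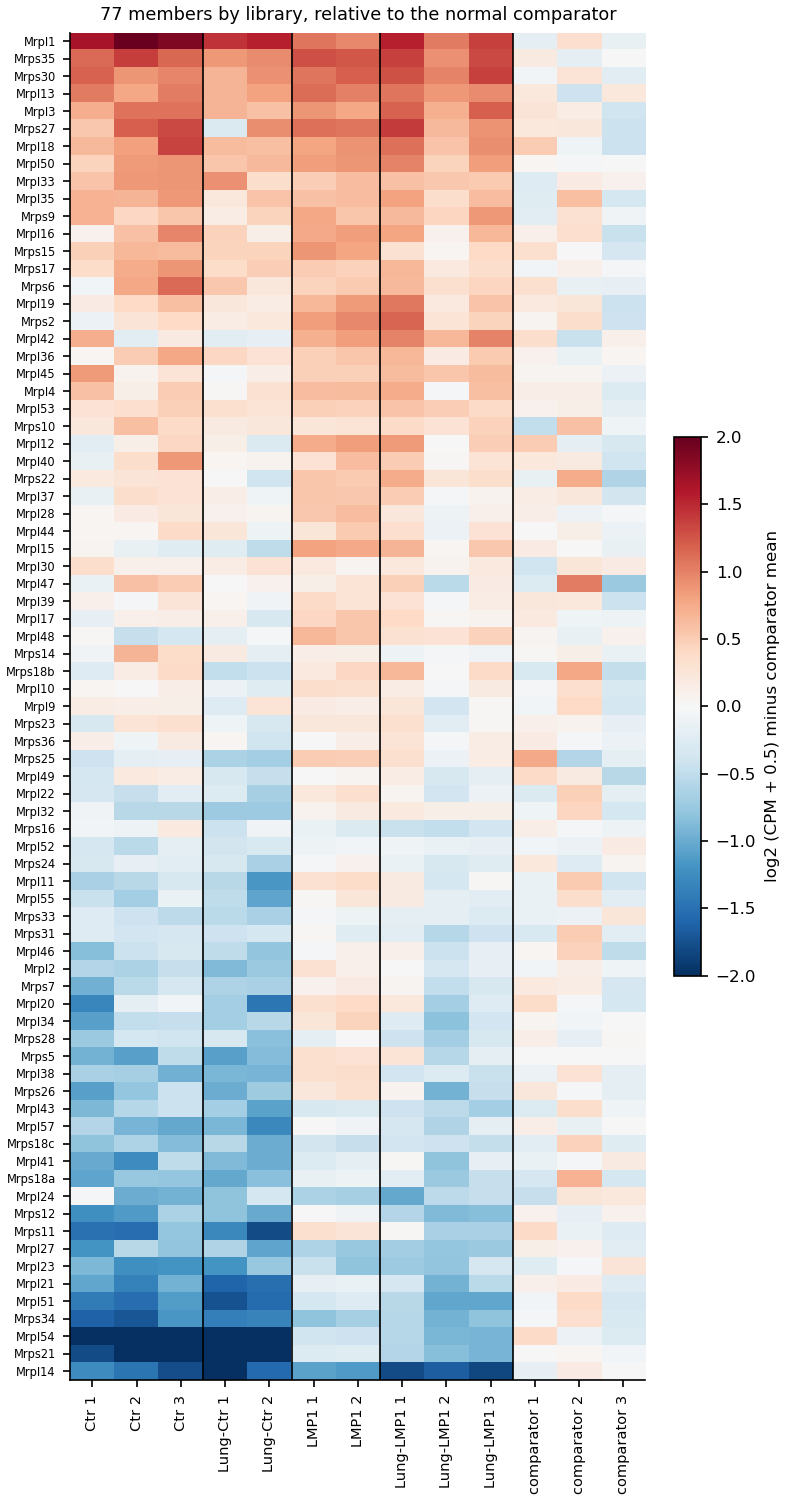
Log2 (CPM + 0.5) of the 77 members in the 10 tumour libraries and the 3 comparator libraries, as the difference from each member's comparator mean, with members ordered by their mean over the tumour libraries. Mrpl1 and Mrps35 lead the red end, and Mrpl14, Mrps21 and Mrpl54 close the blue end, with Mrps21 and Mrpl54 paler in LMP1 and Lung-LMP1 than in Ctr and Lung-Ctr.

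Normal nasopharynx and normal lung organoids differed in some members, though a smaller share of members than of all genes was called. The summed share was 0.26%, 0.28% and 0.23% of counts in Normal_nasopha and 0.18%, 0.21% and 0.19% in Normal_lung, which do not overlap (ratio 1.34). Of the 77 members tested, 10 rose and 2 fell, or 15.6%, a lower share than the 31.1% of all 15886 genes tested (15.4% higher and 15.6% lower). The median log2 fold change of members was 0.33, beside 0.13 for all genes. The 10 lung epithelial markers summed to 60823 to 69538 CPM in Normal_lung and 104 to 257 CPM in Normal_nasopha, and leukocyte markers to 1673 to 2954 and 64.3 to 273.5 CPM. The mesenchymal markers summed to 321.6 to 1052 CPM in Normal_lung and 18.4 to 50.8 CPM in Normal_nasopha, and all 9 of them that were tested fell in nasopharynx (median log2 fold change -4.82). Of 10 epithelial markers 5 rose in nasopharynx and 0 fell. The part of these markers in the member values was not tested.

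Mrps18b was at 16.1, 33.3 and 13.6 CPM in Normal_nasopha and 4.02, 6.22 and 5.20 CPM in Normal_lung, a log2 fold change of 1.89 ± 0.41 (SE; adjusted p = 0.0139, edgeR). Mrps22, a mitochondria-specific small subunit protein, was at 26.9, 47.7 and 19.2 CPM against 8.14, 9.59 and 7.72 CPM (1.74 ± 0.37 SE). Mrpl19 was at 34.8, 36.0 and 22.6 CPM against 10.7, 13.2 and 11.4 CPM (1.26 ± 0.25 SE). In each of these the lowest nasopharynx library was above the highest lung library, and replicate 2 was the highest nasopharynx library.

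Mrps6 (1.25 ± 0.33 SE), Mrps5 (1.12 ± 0.18), Mrpl35 (1.08 ± 0.31) and Mrpl38 (1.04 ± 0.20) also rose on the log2 scale. Mrpl14 fell by 1.33 on that scale (SE 0.28; adjusted p = 0.0114, edgeR), at 19.1, 31.3 and 25.7 CPM against 72.7, 49.1 and 50.8 CPM, and Mrpl4 fell by 0.63 (SE 0.19). Mrpl58 did not pass, with 26.9, 25.5 and 20.9 CPM against 18.9, 23.5 and 21.0 CPM and a log2 fold change of 0.06 ± 0.20 (SE). Mrps12, Mrps18a, Mrps18c and Mrps36 did not pass either, at 0.06, 0.40, -0.07 and 0.01. Without Normal_lung replicate 1, 2 or 3, the counts were 2 higher and 1 lower, 5 and 1, and 3 and 1. No share of all genes is given here for these fits, so the change cannot be told from one over all genes. Without replicate 1 or 3 of Normal_lung, Mrps18b, Mrps22 and Mrpl19 had adjusted p-values from 0.051 to 0.061 (edgeR).

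**Figure D5:**
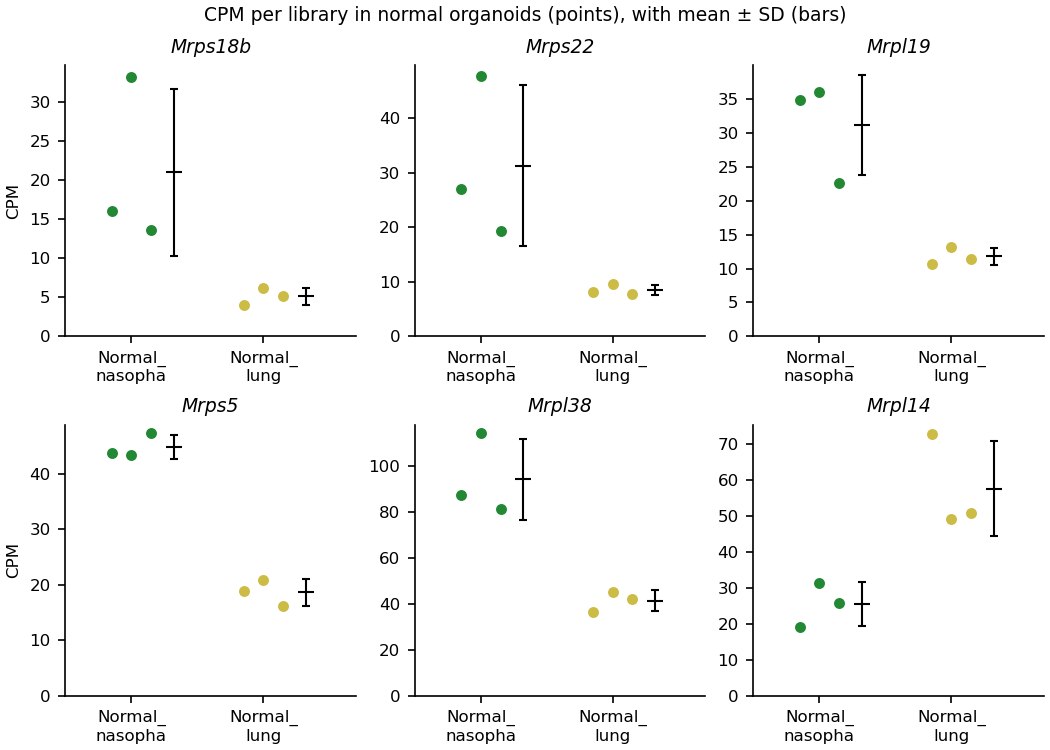
CPM of 6 members in each Normal_nasopha and Normal_lung library (points), with mean ± SD, on axes that start at 0. Mrps18b, Mrps22, Mrpl19, Mrps5 and Mrpl38 are higher in nasopharynx, and Mrpl14 is higher in lung, with no overlap in any of the 6.

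For 15 of the 77 members the comparator counts were over 1.2 times those of Normal_nasopha or, for Mrpl53, above 0 where that table lists 0, while the median ratio over members was 0.89. The largest were Mrps18c (5.84), Mrpl23 (4.01), Mrpl33 (3.88), Mrps30 (2.94), Mrps18b (2.56) and Mrpl12 (2.14), followed by Mrpl18 (2.02) and Mrpl14 (1.96). Of the 15 members, 12 share exon sequence with another gene, 4 of them on the same strand, while 20 of the 62 others do. Whether the counting used strand is not given in the sources used here, so for these 12 members reads of the partner gene cannot be told apart. Mrpl23, Mrps36 and Mrps33 share no exon with another gene, and the cause of their ratios was not tested. Among the 45 members that share no exon with another gene, 11 rose and 0 fell in TMPL against TMP, with a median log2 fold change of 0.31. Of the 32 that share one, 7 rose and 0 fell, beside 7.23% of all genes higher and 5.14% lower. For all tumour groups against the comparator, 6 of these 45 rose and 10 fell, with a median of 0.02. Of the 32, 7 rose and 9 fell, beside 18.9% of all genes higher and 25.8% lower. The part of shared exons in these calls was not tested.

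Genes that work with the mitochondrial ribosome were followed by list. For TMPL against TMP, 7.23% of all genes tested were higher and 5.14% lower. Of 6 ribosome proteins with other symbols, 2 rose and 0 fell, namely Gadd45gip1 (1.09 ± 0.20 SE on the log2 scale) and Aurkaip1 (0.42 ± 0.11). Of 25 genes for assembly and rRNA modification, 1 rose and 2 fell: C1qbp, a matrix protein, was at 1.13 ± 0.17, Ngrn at -0.51 ± 0.11 and Mterf3 at -0.61 ± 0.17. Among 14 translation factors 2 rose, the elongation factors Tufm (0.80 ± 0.17) and Gfm1 (0.65 ± 0.17). Sars2 alone rose of 20 genes for aminoacyl-tRNA synthesis (0.75 ± 0.18), and Myc alone of 14 regulators of mitochondrial transcription and biogenesis. Medians over these lists were 0.19, 0.13, 0.16, 0.03 and 0.05 on the log2 scale, beside 0.29 for the members and -0.05 for all genes, and the lists were not compared by a test.

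In the tumour groups against the normal comparator, where 18.9% of all genes were higher and 25.8% lower, 3 of 6 ribosome proteins with other symbols rose and 2 fell. Of 25 assembly and rRNA modification genes 5 rose and 3 fell, and of 14 translation factors 3 rose and 1 fell. Further, 10 of 20 aminoacyl-tRNA synthesis genes rose and 1 fell, with Wars2 at 1.24 ± 0.20 and Nars2 at 0.95 ± 0.21 on the log2 scale (SE). Among the 14 regulators 6 rose and 0 fell, among them Myc (3.47 ± 0.28), the ETS factor Gabpa (1.02 ± 0.15) and the mitochondrial transcription factor Tfam (0.97 ± 0.15). Medians of the 5 lists in this order were 0.08, 0.13, 0.17, 0.43 and 0.55, beside -0.00 for the members. No test compared the lists. Genes of mitochondrial DNA itself were not analysed here.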

How the data were processed

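Alignment by the authors was with STAR on mm10, with DESeq and DESeq2 for comparison, per the submitters' processing notes. The counting tool, its annotation and software releases: not given in the sources used here. Per the file headers the deposited values are unnormalised counts of reads by gene, and only these were tested. Log2 fold changes and adjusted p-values that the authors deposited are quoted only as those of their table, with calls at an adjusted p-value under 0.05. A further 32 columns of scaled scores were not used.

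Counts were tested with edgeR 4.0.16 (R 4.3.3): filterByExpr by group, TMM, dispersions fitted robustly and its quasi-likelihood test, p-values being adjusted over all genes tested (Benjamini-Hochberg). The 10 tumour libraries were fitted with 1 mean per group, or with genotype and Lung prefix as terms; the 13 libraries of the symbol tables gave the comparisons with the comparator; the 6 normal libraries were fitted alone. TMM factors ran from 0.924 to 1.0645. CPM per library are by total count. The test was checked on simulated data. Replicates of a group differed by more than counting noise (chi-square per gene of at least 14.1, LMP1). Alternatives were DESeq2 1.42.0, RLE size factors, no filter, each library left out, a replicate block, fits restricted to the groups compared, the Lung prefix dropped as a term, and a correction for length and GC content (mgcv 1.9.3); for the summed share, a TMM-scaled total and the mean of log2 CPM.

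Members and lists were chosen with earlier results of these data known. Named are, per comparison, up to 6 called members per direction whose groups do not overlap, or the 3 of smallest p where under 3 were called; the 4 highest and lowest per kilobase; the 6 of widest range; and Mrpl12, Mrps12, Mrps18a, Mrps18b, Mrps18c, Mrps30, Mrps36 and Mrpl58. Others named were chosen after their values were seen.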

Additional observations from a re-analysis of the deposited data

Results flagged for a closer look

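Within the 5 TMP or 5 TMPL libraries, 4 of 82 sets of values tested had 1 library far from the rest by Dixon's gap ratio (critical value 0.71 for 5 samples), and chance flags about 1 in 20. Mrpl18 was highest in Ctr replicate 3 at 111.9 CPM, with the next TMP library at 76.99 (ratio 0.769). Mrpl32 was highest in Ctr replicate 1 at 25.3 CPM, with the next at 17.9 (0.787). Mrps21 was highest in the same library at 14.0 CPM, with the next at 9.03 (0.751). Mrpl4 was lowest in Lung-LMP1 replicate 2 at 51.8 CPM, with the next TMPL library at 81.2 (0.780).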

How the results depend on the processing

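Replicate numbers were not shown to pair libraries: deviations of same-numbered libraries correlated above 0.1 in 2 of 13 pairs of tumour libraries, and from -0.196 to -0.105 in the 3 pairs of normal ones. With a replicate block, members called were 3 for LMP1 against Ctr (also 3 with the length and GC correction), 0 for Lung-LMP1 against LMP1, 6 for LMP1 and 15 for Lung-Ctr against the comparator, and 6 for Normal_nasopha against Normal_lung. The block with the length and GC correction gave 8 for TMPL against TMP, 0 for Lung-LMP1 against LMP1, 20 for all tumour groups, 19 for Ctr and 11 for Lung-Ctr against the comparator, and 6 for the normal tissues. The correction alone gave 10 for LMP1 against Ctr and 0 for Lung-LMP1 against LMP1. Under it 1050 and 1191 of all 13460 genes were called, against 2210 and 1360 without it. DESeq2 called 15 for Lung-LMP1 against Lung-Ctr, 2 for Lung-LMP1 against LMP1 and 30 (29 higher, 1 lower) for TMPL against TMP. It called 6.46% of all genes in the first of these comparisons and 23.2% in the last. Without a filter, 0 were called for Lung-LMP1 against LMP1 and 7 for LMP1 against the comparator. Fits of only the groups compared called 16 for Ctr, 3 for LMP1, 1 for Lung-Ctr and 12 for Lung-LMP1 against the comparator. In this order they called 22.4%, 16.7%, 1.24% and 22.7% of all genes. For the replicate block and the fits without a filter no share of all genes is given here. A change in members called there cannot be told from a change over all genes.

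Leaving out each library in turn gave ranges of members called of 0 to 18 for LMP1 against Ctr, 0 to 1 for Lung-LMP1 against Lung-Ctr and for Lung-LMP1 against LMP1, 0 to 0 for Lung-Ctr against Ctr and for the interaction, and 7 to 24 for TMPL against TMP. Against the comparator the ranges were 22 to 33 for all tumour groups, 22 to 30 for Ctr, 2 to 17 for LMP1, 12 to 28 for Lung-Ctr and 7 to 20 for Lung-LMP1, and for the normal tissues 3 to 16. Low counts came without LMP1 replicate 1 or 2 (2 for LMP1 against the comparator), Ctr replicate 2 or Lung-LMP1 replicate 3 (7 each for LMP1 against Ctr), Ctr replicate 1 (9), Lung-Ctr replicate 1 or 2 (14 and 12 against the comparator), and Lung-LMP1 replicate 3, comparator replicate 3 or Lung-LMP1 replicate 1 (7, 11 and 12 for Lung-LMP1 against the comparator). No share of all genes is given here for these fits, so a change in members called cannot be told from a change over all genes. The cause was not tested.

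Against the comparator, the length and GC correction reversed Mrpl13 in Lung-Ctr (-0.0170 on the log2 scale) and Mrpl52 (0.37) and Mrps12 (0.048, and 0.076 with the replicate block) in all tumour groups, and with the block Mrpl54 in Lung-LMP1 (0.0066). The share ratio of TMPL over TMP was 1.27 under both alternatives, and those of tumour over comparator and of the normal tissues stayed within their spread.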

Other observations

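Lung-Ctr replicate 2 was the lowest of the 10 tumour libraries for 27 of the 77 members and Lung-Ctr replicate 1 for 14. LMP1 replicates 1 and 2 were the highest for 18 and 19 members and Lung-LMP1 replicate 1 for 14, while Lung-LMP1 replicate 2 was the highest for 0 and the lowest for 11.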
